A study of Caenorhabditis elegans with 9 samples.

Results

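The *clec* genes of *C. elegans*, which encode proteins with a C-type lectin-like domain, were followed across 3 genotypes that differ in ATF-4. Every gene named *clec* and a number was a member if its level reached 5 ppm in at least 1 library, where ppm is the gene's part of 1000000 after correction for gene length. The annotation of the WBcel235 genome names 240 such genes, and 67 of them were members. Of the remaining genes, 26 stayed below the minimum and 147 were not in the sheet of centred and scaled values from which levels were taken, of which 36 were at 0 RPKM in every library. The highest level was 5.06 ppm for *clec-64*, the member closest to the minimum, and 4.70 ppm for *clec-165*, the gene just outside it.

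ATF-4 is a bZIP transcription factor whose own translation rises when protein synthesis is restrained. C-type lectin-like domains can bind sugars and other ligands, and the family is greatly expanded in nematodes. Many *clec* products are secreted, many are made in the intestine, and a number of *clec* genes are induced when worms feed on pathogenic bacteria, some of them through the p38 kinase PMK-1. The animals here fed on OP50, the standard laboratory strain of *Escherichia coli*.

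The study asked which transcripts depend on ATF-4. ATF-4OE animals carry *ldIs119*, an integrated transgene of genomic *atf-4* with GFP under the *atf-4* promoter, together with the marker *rol-6(su1006)*, which makes animals roll. The mutant strain carries the deletion *atf-4(tm4397)*, and WT was the strain N2. Each genotype was represented by 3 biological replicates of about 20000 animals, grown at 20 °C and collected whole at the L4 stage, the last larval stage. The transgene, its marker and its insertion site cannot be told apart in their effects on ATF-4OE, since they come together in every ATF-4OE library, and in whole animals fewer cells of a type cannot be told apart from less RNA per cell.

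The level of *atf-4* was 5289, 4184 and 6845 ppm in ATF-4OE libraries, 3.81, 3.69 and 9.31 ppm in *atf-4(tm4397)* libraries, and 200, 168 and 215 ppm in WT libraries. The targeted gene thus ordered the libraries by their labels. Depth, estimated from the steps of the RPKM values, was 23.9 to 35.2 M reads per library. By this estimate 1 ppm stood for 23.7 to 33.3 reads at the median exon length of the members. The estimate is rough, because only 40.2 to 49.7% of values worth fewer than 20 reads came out whole. The columns of the RPKM sheet hold the same libraries under other names, and 6 of 9 libraries carry another genotype there. Names were therefore taken from the sheet of centred and scaled values, with which the sheet of most regulated genes gives the same genotype for 9 of 9 libraries. *atf-4(tm4397)* replicates 2 and 3 are exchanged between these 2 sheets. ATF-4OE replicate 1 was the lowest ATF-4OE library for 44 of the 67 *clec* genes and *atf-4(tm4397)* replicate 3 the lowest mutant library for 46, as WT replicate 2 was among WT libraries for 46. These positions were not counted over all genes tested.

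Most *clec* genes were lower in ATF-4OE than in WT. Of the 67 members, 36 fell, 3 rose and 28 did not pass the test (limma, Benjamini-Hochberg adjusted p under 0.1 over all 11287 genes tested). Among all genes tested 14.4% were lower and 22.1% were higher by the same test, so the share of *clec* genes that fell, 53.7%, lay above the background and the share that rose, 4.48%, below it. With a change beyond 1 on the log2 scale also required, 26 *clec* genes were lower and 3 higher, against backgrounds of 2.96% and 6.02%. The 3 ATF-4OE libraries lay below all 3 WT libraries for 37 *clec* genes and above them for 4, while 23.0% and 25.1% of all genes did so. The median log2 fold change was -0.93 over the members and 0.01 over all genes tested, and that of the members was -0.58 with a pseudocount of 4 and -0.60 over all *clec* genes of the sheet with no minimum. Without ATF-4OE replicate 1, 23 *clec* genes were lower, all of them among the 36, and without WT replicate 3 there were 27, while the 3 that rose remained in both cases. The calls of *clec-5*, *clec-48*, *clec-83*, *clec-84*, *clec-150*, *clec-169*, *clec-172*, *clec-204* and *clec-227* were lost when either of these libraries was left out, and those of *clec-52*, *clec-85*, *clec-86* and *clec-221* without ATF-4OE replicate 1.

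**Figure D1:**
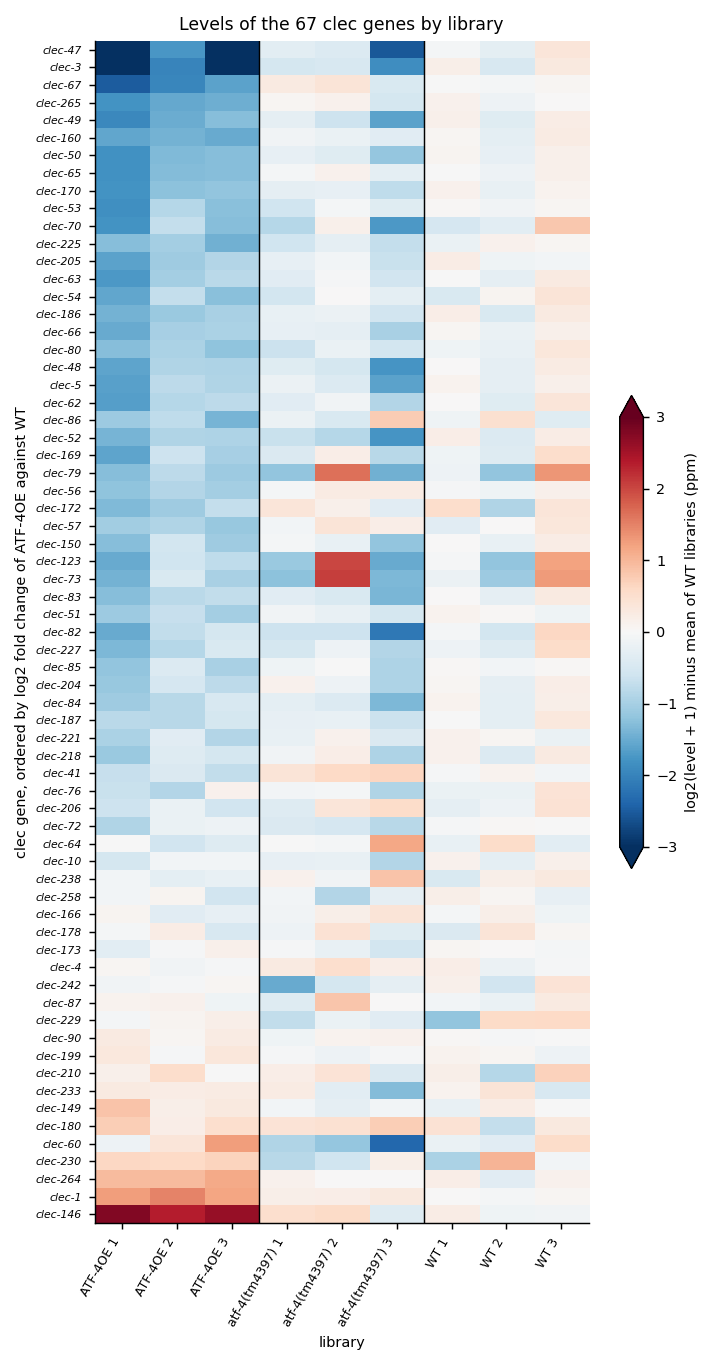
Levels of the 67 *clec* genes (rows, ordered by the log2 fold change of ATF-4OE against WT) in the 9 libraries (columns), as log2(level + 1) minus the mean of the 3 WT libraries; blue is lower and red is higher than WT, and the colour scale ends at 3 in either direction. The upper rows are blue in all 3 ATF-4OE columns, *clec-146*, *clec-1* and *clec-264* at the bottom are red in these columns, and *atf-4(tm4397)* replicate 3 is bluer than the other 2 mutant libraries.

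Members that fell were found at every level. No share by level was taken over all genes tested, of which 14.4% were lower. Of the 8 *clec* genes with a mean of 100 ppm or more, 7 fell and 1, *clec-1*, rose. Between 10 and 100 ppm, 19 of 27 fell and 1 rose, and below 10 ppm 10 of 32 fell and 1 rose. Single libraries moved these counts. At 100 ppm or more, 3 of 8 were lower without ATF-4OE replicate 1 and 3 of 8 without WT replicate 3. Below 10 ppm, 4 of 32 were lower without ATF-4OE replicate 1 and 6 of 32 without ATF-4OE replicate 3, WT replicate 1 or WT replicate 3. The minimum can favour a direction, because 7 members passed it only in WT libraries, 4 only in mutant libraries and 1 only in ATF-4OE libraries. Of the 7, 3 are counted among the 36 that fell. The 1 member, *clec-264*, is counted among the 3 that rose. Among the 34 members at or above the minimum in all 9 libraries, 24 fell and 1 rose.

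The most abundant *clec* transcripts were those of *clec-63*, *clec-50*, *clec-48*, *clec-47* and *clec-150*. Together these 5 genes accounted for 46.8 to 55.2% of the summed *clec* level in ATF-4OE libraries, 60.8 to 65.9% in *atf-4(tm4397)* libraries and 65.8 to 68.2% in WT libraries. *clec-63* (chromosome II, 12895638 to 12897446, plus strand) had 535, 883 and 1023 ppm in ATF-4OE libraries, 1416, 1725 and 1190 ppm in *atf-4(tm4397)* libraries, and 1766, 1482 and 2150 ppm in WT libraries. The 3 ATF-4OE libraries lay below all 6 others, and the change against WT was -1.18 ± 0.24 on the log2 scale (standard error, limma adjusted p = 0.0083).

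*clec-50* (chromosome V, 19752399 to 19755368, minus strand) had 252, 356 and 364 ppm in ATF-4OE libraries, 753, 688 and 399 ppm in *atf-4(tm4397)* libraries, and 942, 747 and 992 ppm in WT libraries. All ATF-4OE libraries were again below the rest, by a small margin to mutant replicate 3, and the log2 fold change against WT was -1.47 ± 0.25 (adjusted p = 0.0033, limma). *clec-48* averaged 196 ± 48.0 ppm in ATF-4OE libraries and 427 ± 76.5 ppm in WT libraries (SD, n = 3 each), and *clec-150* averaged 163 ± 43.6 ppm in ATF-4OE libraries and 316 ± 48.5 ppm in WT libraries. Both passed the limma test, with adjusted p = 0.039 for *clec-48* and 0.036 for *clec-150*, but the calls rested on single libraries. Without ATF-4OE replicate 1 the adjusted p was 0.15 for *clec-48* and 0.14 for *clec-150*, without WT replicate 3 it was 0.12 for each gene, and without ATF-4OE replicate 3 it was 0.10 for *clec-150*, just above the threshold.

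The largest decreases were those of *clec-47* and *clec-3*. *clec-47* (chromosome V, 15175759 to 15176324, plus strand) had 28.5, 136 and 47.3 ppm in ATF-4OE libraries, 365, 341 and 77.6 ppm in *atf-4(tm4397)* libraries, and 439, 371 and 587 ppm in WT libraries. ATF-4OE replicate 2 was far above the other 2 ATF-4OE libraries but still below the lowest WT library, and mutant replicate 3 lay within the ATF-4OE range. The fitted level was 7.90-fold lower in ATF-4OE than in WT (log2 fold change -2.98 ± 0.66, limma adjusted p = 0.011). *clec-3* (chromosome II, 3017468 to 3019907, minus strand) had 0.495, 3.76 and 1.14 ppm in ATF-4OE libraries, 12, 12.5 and 4.16 ppm in *atf-4(tm4397)* libraries, and 20.3, 12.5 and 21.9 ppm in WT libraries. The 3 ATF-4OE libraries were the 3 lowest (log2 fold change against WT -2.92 ± 0.48, limma adjusted p = 0.0033). *clec-3* is overlapped by C41H7.2 on the other strand, and whether strand was used in counting is not given in the sources used here, so reads of the 2 genes may not have been separated.

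A further set of members fell while the mutant stayed close to WT. *clec-67*, an intestinal lectin gene that depends on PMK-1, had 3.74, 5.95 and 7.88 ppm in ATF-4OE libraries, 31.4, 34.0 and 18.7 ppm in *atf-4(tm4397)* libraries, and 25.8, 24.7 and 27.1 ppm in WT libraries. The highest ATF-4OE library was well below the lowest of the other 6 (log2 fold change against WT -2.01 ± 0.26, limma adjusted p = 0.0013). *clec-265*, on chromosome X, had 13.7, 16.7 and 17.6 ppm in ATF-4OE libraries, 52.8, 55.4 and 34.9 ppm in *atf-4(tm4397)* libraries, and 54.9, 45.6 and 51.2 ppm in WT libraries. *clec-160*, on chromosome III, had 7.90, 8.87 and 8.17 ppm in ATF-4OE libraries, 23.5, 21.8 and 19.6 ppm in *atf-4(tm4397)* libraries, and 26.3, 20.4 and 30.2 ppm in WT libraries. In both genes the highest ATF-4OE library lay far below the lowest library of the other genotypes. The log2 fold changes against WT were -1.60 ± 0.18 for *clec-265* (limma adjusted p = 8.0e-04) and -1.50 ± 0.14 for *clec-160* (limma adjusted p = 4.1e-04).

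*clec-65* averaged 21.1 ± 4.4 ppm in ATF-4OE libraries, 56.7 ± 8.6 ppm in *atf-4(tm4397)* libraries and 59.4 ± 6.2 ppm in WT libraries (SD, n = 3 each), with a change against WT of -1.47 ± 0.17 on the log2 scale (limma adjusted p = 9.6e-04). *clec-170* had 13.5, 20.6 and 21.1 ppm in ATF-4OE libraries, 40.9, 41.1 and 28.6 ppm in *atf-4(tm4397)* libraries, and 53.6, 41.9 and 53.2 ppm in WT libraries. It fell against WT (log2 fold change -1.40 ± 0.20, limma adjusted p = 0.0021), and its mutant libraries all lay below the WT libraries, by a small margin for the closest pair, without passing the test (-0.43, limma adjusted p = 0.48). *clec-53* was lower as well (-1.32 ± 0.23, limma adjusted p = 0.0044), a call that was lost on the values as deposited, with no log (adjusted p = 0.19). Over the whole family, the ATF-4OE libraries lay below all 6 other libraries for 19 of 67 members and above them for 3, against 12.5% and 18.4% of all genes tested.

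The 3 *clec* genes that rose in ATF-4OE were *clec-146*, *clec-1* and *clec-264*. *clec-146* (chromosome II, 13590641 to 13593774, minus strand) had 41.7, 30.9 and 36.8 ppm in ATF-4OE libraries, 7.85, 8.21 and 3.77 ppm in *atf-4(tm4397)* libraries, and 6.28, 4.68 and 4.74 ppm in WT libraries. Its groups were far apart, and the fitted level was 6.01-fold higher in ATF-4OE than in WT (log2 fold change 2.59 ± 0.25, limma adjusted p = 4.1e-04). *clec-1* (chromosome V, 5700154 to 5701080, plus strand) had 279, 330 and 267 ppm in ATF-4OE libraries, 132, 135 and 143 ppm in *atf-4(tm4397)* libraries, and 117, 111 and 122 ppm in WT libraries. Replicates of *clec-1* lay close together in each genotype, and the log2 fold change against WT was 1.31 ± 0.10 (limma adjusted p = 1.5e-04).

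*clec-264* (chromosome V, 20847702 to 20850701, minus strand) had 6.6, 6.56 and 7.70 ppm in ATF-4OE libraries, 3.32, 2.99 and 2.94 ppm in *atf-4(tm4397)* libraries, and 3.54, 2.11 and 3.29 ppm in WT libraries. It passed the minimum of 5 ppm only in ATF-4OE libraries, so its rise is given as a description only. Its log2 fold change against WT was 1.01 ± 0.19 (limma adjusted p = 0.0061). The gene is overlapped by *fkb-6* on the other strand, so its reads may include those of *fkb-6*, and on the values as deposited, with no log, the call was lost (adjusted p = 0.23).

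**Figure D2:**
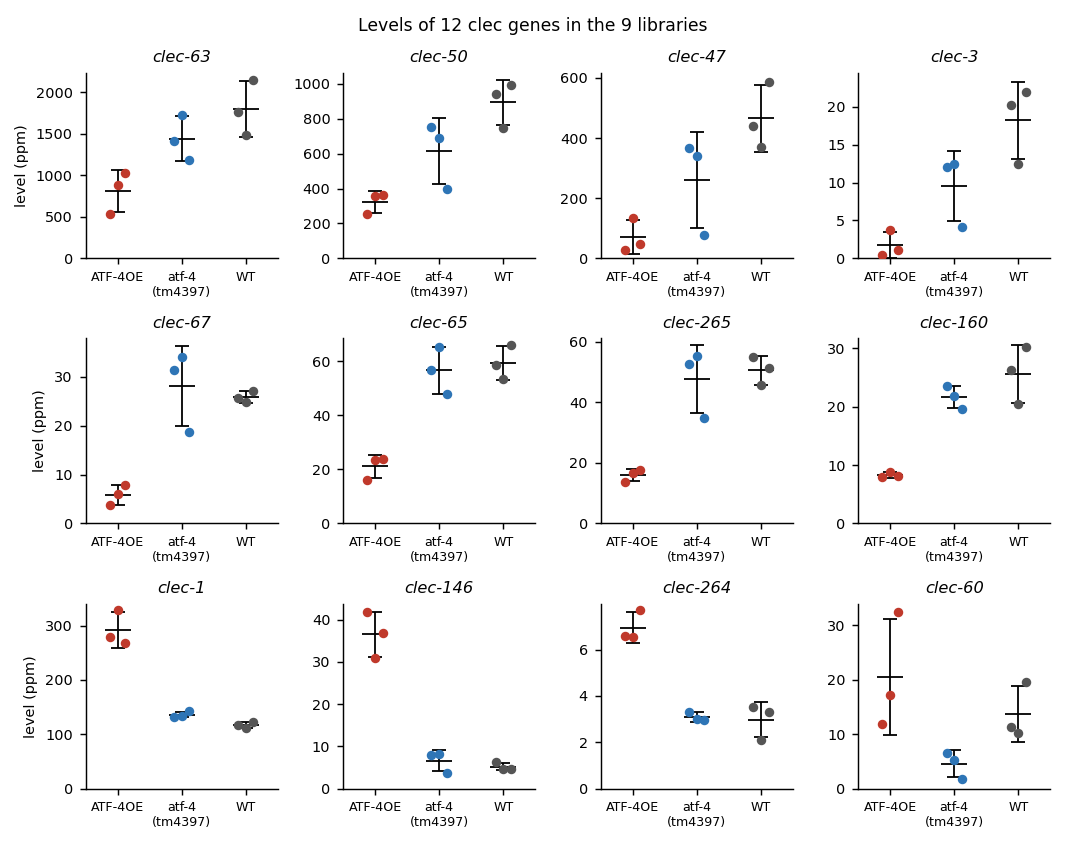
Levels in ppm of 12 *clec* genes in each library of ATF-4OE, *atf-4(tm4397)* and WT (points), with the mean and SD of the 3 libraries of a genotype (black line and bars). ATF-4OE libraries are the 3 lowest for *clec-63*, *clec-50*, *clec-3*, *clec-67*, *clec-65*, *clec-265* and *clec-160* and the 3 highest for *clec-1*, *clec-146* and *clec-264*. Mutant replicate 3 falls within the ATF-4OE range for *clec-47*. For *clec-60* the mutant libraries are the 3 lowest, and the ranges of ATF-4OE and WT overlap.

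Not all lectin genes known from infection experiments were called in ATF-4OE against WT. Of 8 such genes looked for, *clec-39*, *clec-61* and *clec-71* were not members and the other 5 were. Besides *clec-67*, *clec-49* and *clec-85* fell. *clec-49*, studied in infection with *Serratia marcescens*, had 28.4, 39.3 and 45.5 ppm in ATF-4OE libraries, 92.3, 72.3 and 36.0 ppm in *atf-4(tm4397)* libraries, and 124, 86.0 and 129 ppm in WT libraries. The ATF-4OE and WT libraries did not overlap (log2 fold change -1.56 ± 0.33, limma adjusted p = 0.0087). *clec-85*, another gene that depends on PMK-1, averaged 20.6 ± 6.3 ppm in ATF-4OE libraries and 36.9 ± 1.7 ppm in WT libraries (SD, n = 3 each). Its log2 fold change was -0.85 ± 0.26 (limma adjusted p = 0.036), and the adjusted p was 0.14 without ATF-4OE replicate 1 and 0.11 without ATF-4OE replicate 3. Other annotated genes overlap *clec-85*.

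*clec-60*, which is induced by *Staphylococcus aureus*, had 11.8, 17.3 and 32.4 ppm in ATF-4OE libraries, 6.57, 5.33 and 1.75 ppm in *atf-4(tm4397)* libraries, and 11.3, 10.2 and 19.5 ppm in WT libraries. The ranges of ATF-4OE and WT overlapped and the test was not passed (log2 fold change 0.49 ± 0.45, limma adjusted p = 0.45). Against the mutant, *clec-60* was higher in all 3 ATF-4OE libraries (log2 fold change 1.96 ± 0.45, limma adjusted p = 0.014), although not on the values with no log (adjusted p = 0.23). *clec-70* was low throughout, with 0.240, 1.61 and 0.754 ppm in ATF-4OE libraries and 2.02, 2.42 and 6.54 ppm in WT libraries. It did not pass the test (log2 fold change -1.26 ± 0.57, limma adjusted p = 0.13), although its ATF-4OE libraries all lay below the WT libraries. It was called lower with library weights, without mutant replicate 2 and without mutant replicate 3. *clec-70* reached the minimum only in WT, so its values are given as a description only.

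ATF-4OE was next compared with *atf-4(tm4397)*, which asks for the contrast between high and absent ATF-4. Both comparisons use the same ATF-4OE libraries, so they are not independent. Against the mutant, 22 members were lower, 5 higher and 40 did not pass the test, beside 13.8% lower and 19.8% higher among all genes tested. The shares of members were 32.8% lower and 7.46% higher. With the limit of 1 on the log2 scale, 11 were lower and 3 higher (backgrounds 2.57% and 6.13%), and the libraries did not overlap for 21 lower and 9 higher members (backgrounds 16.8% and 22.4%). The median log2 fold change was -0.49 over the members and -0.03 over all genes tested. Without *atf-4(tm4397)* replicate 3, 31 members were lower and 7 higher, and 20 of the 31 were among the 22. Without *atf-4(tm4397)* replicate 2, 15 members were lower and the median was -0.27, and without ATF-4OE replicate 1, 15 members were lower as well.

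The strongest decrease against the mutant was that of *clec-67* (log2 fold change -2.08 ± 0.26, limma adjusted p = 0.0012), followed by *clec-3* (-1.96 ± 0.48, adjusted p = 0.019), *clec-47* (-1.89 ± 0.66, adjusted p = 0.068) and *clec-265* (-1.50 ± 0.18, adjusted p = 0.0011). *clec-47* did not hold when a single library was left out: the adjusted p was 0.21 without ATF-4OE replicate 1, 0.17 without ATF-4OE replicate 3, 0.17 without mutant replicate 1 and 0.20 without mutant replicate 2. *clec-65* (-1.39 ± 0.17, limma adjusted p = 0.0012) and *clec-160* (-1.28 ± 0.14, limma adjusted p = 7.8e-04) were lower in every ATF-4OE library than in every mutant library. The abundant *clec-63* (-0.86 ± 0.24, limma adjusted p = 0.032) and *clec-50* (-0.89 ± 0.25, limma adjusted p = 0.029) were lower too. Without mutant replicate 2 their adjusted p was 0.11 for *clec-63* and 0.10 for *clec-50*, and without ATF-4OE replicate 1 it was 0.11 for *clec-50*. On the values with no log the adjusted p against the mutant was 0.15 for *clec-63*, 0.15 for *clec-50* and 0.16 for *clec-47*.

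The 5 members higher than in the mutant were *clec-146* (log2 fold change 2.35 ± 0.25, limma adjusted p = 6.2e-04), *clec-60*, *clec-1* (1.09 ± 0.10, limma adjusted p = 3.8e-04), *clec-264* (0.96 ± 0.19, limma adjusted p = 0.0085) and *clec-149*. *clec-149* had 12.4, 7.30 and 8.02 ppm in ATF-4OE libraries and 5.93, 5.10 and 5.98 ppm in *atf-4(tm4397)* libraries, which did not overlap (log2 fold change 0.59 ± 0.20, limma adjusted p = 0.062). With the replicate number as a block its adjusted p was 0.11, without ATF-4OE replicate 1 it was 0.19 and without mutant replicate 2 it was 0.17. On the values with no log, neither *clec-264* nor *clec-149* passed against the mutant, and the sign of both was turned. *clec-264* passed the minimum only in ATF-4OE libraries, so its rise is given as a description only. The test against the mutant was not passed by, among others, *clec-48*, *clec-49*, *clec-52*, *clec-83*, *clec-84* and *clec-85*. *clec-52*, described here after its values were seen, had 17.3, 24.7 and 24.4 ppm in ATF-4OE libraries, 29.3, 25.5 and 13.1 ppm in *atf-4(tm4397)* libraries, and 54.1, 35.4 and 54.8 ppm in WT libraries, so the mutant libraries spanned the ATF-4OE range and stayed below WT.

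**Figure D3:**
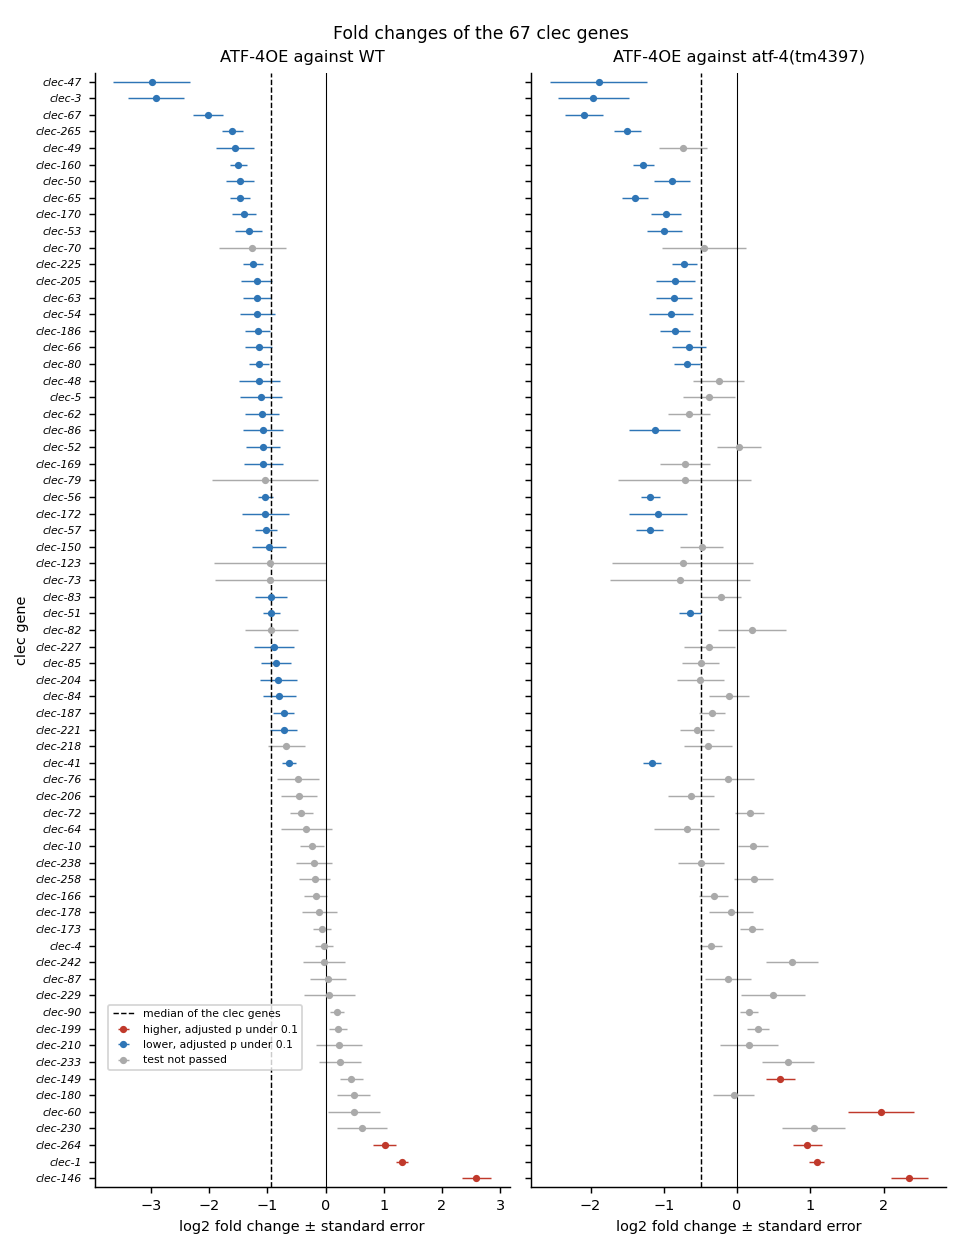
Log2 fold changes with their standard errors of the 67 *clec* genes for ATF-4OE against WT (left) and ATF-4OE against *atf-4(tm4397)* (right), with genes in the same order in both panels. Blue genes were lower (36 left, 22 right), red genes were higher (3 left, 5 right) and grey genes did not pass the test, and the dashed lines mark the medians of -0.93 and -0.49.

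The comparison of *atf-4(tm4397)* with WT, which asks what loss of ATF-4 does under normal growth, called none of the 67 *clec* genes in either direction by limma. The test called few genes at all, 0.0354% higher and 0.0177% lower of the 11287 tested. At an unadjusted p under 0.05, 1 *clec* gene was higher and 11 were lower, against 5.01% higher and 5.41% lower of all genes tested. The median log2 fold change was -0.32 over the members and 0.02 over all genes tested, and 49 of the 67 members had a negative value, as did 45.8% of all genes tested. The median over the members was -0.16 without *atf-4(tm4397)* replicate 3 and -0.19 without WT replicate 3. The largest decrease among the 11 was that of *clec-60*, whose mutant libraries all lay below the WT libraries. Its log2 fold change was -1.47 ± 0.45 (limma unadjusted p = 0.0094, adjusted p = 0.46). The member that was higher was *clec-41*, given after its values were seen, with 44.4, 52.0 and 53.6 ppm in *atf-4(tm4397)* libraries, against 33.2, 36.9 and 32.0 ppm in WT libraries. These groups did not overlap (log2 fold change 0.54 ± 0.12, limma unadjusted p = 0.0015, adjusted p = 0.46), and without mutant replicate 1 *clec-41* was the 1 member called. In ATF-4OE, *clec-41* had 20.7, 24.8 and 19.9 ppm and was lower than in WT (limma adjusted p = 0.0064) and than in the mutant (limma adjusted p = 5.7e-04).

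The mutant libraries differed among themselves more than the comparison of means shows. For 14 of the 67 members *atf-4(tm4397)* replicate 3 was more than 2-fold below both other mutant libraries. Of the 36 members that were lower in ATF-4OE than in WT, 16 lay within or below the ATF-4OE range in mutant replicate 3, against 1 in mutant replicate 1 and 0 in mutant replicate 2. Conversely, 6 of the 36 reached the WT range in mutant replicate 3, against 19 in replicate 1 and 23 in replicate 2. *clec-48*, for example, had 328, 293 and 124 ppm in mutant libraries, against 426, 350 and 503 ppm in WT libraries. The 36 were picked for being lower in ATF-4OE than in WT in these same data. No such counts were taken over all genes tested. Whether mutant replicate 3 stands apart for *clec* genes in particular therefore cannot be told from them.

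Many members lie next to each other on a chromosome. Of the 67, 45 had another *clec* gene with its start within 20 kb, and 35 stood in 11 runs that held at least 2 members. Of the 35 members in runs, 25 fell against WT and 33 had a negative log2 fold change. Of the 32 outside runs, 11 fell and 21 had a negative value. Over all genes tested, 14.4% were lower and 49% negative. No such share was taken by run, so these counts describe the members only. Without ATF-4OE replicate 1, 18 of 35 and 5 of 32 were lower. Outside runs, 7 of 32 were lower without ATF-4OE replicate 3 and 7 of 32 without WT replicate 3. The run of *clec-62* to *clec-66* on chromosome II (12893062 to 12906644) has 5 members, of which 4 fell by 1.09 to 1.47 on the log2 scale, while *clec-64*, the rarest, did not pass the test (-0.33). In the run of *clec-80*, *clec-82*, *clec-83*, *clec-84* and *clec-85* on chromosome IV (2823746 to 2855456), 4 of 5 fell, but 1 of 5 was lower without ATF-4OE replicate 1 and 2 of 5 without WT replicate 3. All 4 members of the run of *clec-57*, *clec-227*, *clec-56* and *clec-54* on chromosome V fell, as did both members of the pairs *clec-49* and *clec-50*, *clec-51* and *clec-52*, *clec-186* and *clec-187*, *clec-204* and *clec-205*, and *clec-225* and *clec-41*. Of these, *clec-227*, *clec-204* and *clec-205* reached the minimum only in WT libraries, so their decrease is given as a description only. The calls of *clec-227* and *clec-204* were lost without ATF-4OE replicate 1 or WT replicate 3, and that of *clec-52* without ATF-4OE replicate 1.

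In the run of *clec-166*, *clec-169* and *clec-170* on chromosome IV, 2 of 3 fell and *clec-166* did not pass the test (-0.17), and 1 of 3 was lower without ATF-4OE replicate 1 and without WT replicate 3. In that of *clec-67*, *clec-70*, *clec-72*, *clec-73*, *clec-76* and *clec-79* on chromosome IV (3922165 to 3975721), only *clec-67* passed the test, and the values of the other 5 against WT ranged from -1.26 to -0.42. In the pair *clec-229* and *clec-230* on chromosome V, neither gene passed, with 0.06 and 0.63. How reads shared by near-identical neighbours were counted is not given in the sources used here, so values within a run may not be separate. By chromosome, 12 of 23 members on chromosome IV and 13 of 24 on chromosome V fell against WT. The counts were 5 of 11 on II, 3 of 4 on III, 1 of 3 on I and 2 of 2 on X. No share by chromosome was taken over all genes tested, of which 14.4% were lower. Without ATF-4OE replicate 1, 6 of 23 were lower on IV, 1 of 4 on III and 1 of 2 on X. Without WT replicate 3, 1 of 4 was lower on III, and 1 of 2 was lower on X without ATF-4OE replicate 3 or WT replicate 2.

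**Figure D4:**
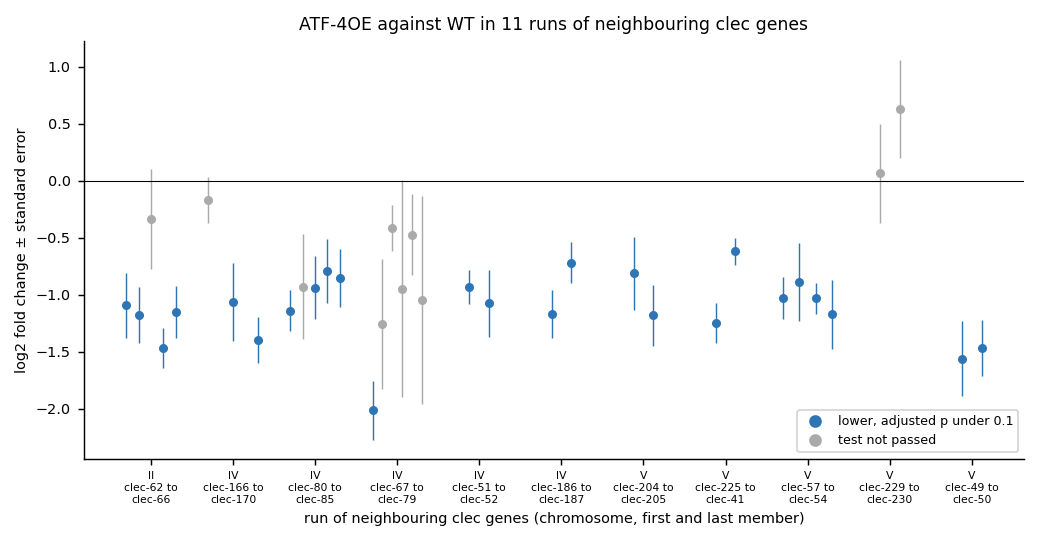
Log2 fold changes of ATF-4OE against WT, with standard errors, for the 35 *clec* genes that stand in 11 runs of neighbouring *clec* genes, ordered along the chromosomes. Blue genes were lower at an adjusted p under 0.1 and grey genes did not pass the test, and the pair *clec-229* and *clec-230* alone lies above 0.

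A further 3 members, *clec-73*, *clec-79* and *clec-123*, had the widest ranges among WT libraries and did not follow genotype. *clec-73* had 0.0787, 1.11 and 0.484 ppm in ATF-4OE libraries, 0.231, 11.1 and 0.137 ppm in *atf-4(tm4397)* libraries, and 1.54, 0.357 and 6.01 ppm in WT libraries. *clec-123* had 0, 0.896 and 0.682 ppm in ATF-4OE libraries, 0.322, 10.4 and 0 ppm in *atf-4(tm4397)* libraries, and 1.79, 0.258 and 5.63 ppm in WT libraries. Both genes, and *clec-79* with 7.49 ppm in mutant replicate 2 and 5.82 ppm in WT replicate 3, passed the minimum in these 2 libraries only. None of the 3 differed between ATF-4OE and WT by the limma test (adjusted p = 0.43 to 0.49). The summed level of 11 measured sperm genes of 24 listed was 16.7, 19.3 and 21.7 ppm in ATF-4OE libraries, 14.8, 104 and 15.7 ppm in *atf-4(tm4397)* libraries, and 26.4, 14.4 and 61.7 ppm in WT libraries. That of 12 measured oocyte and embryo genes of 13 listed was 19.8, 21.7 and 20.9 ppm in ATF-4OE libraries. It was 20.3, 105 and 44.1 ppm in *atf-4(tm4397)* libraries, and 34.9, 26.2 and 51.4 ppm in WT libraries. The same 2 libraries were thus the highest for these *clec* genes, for the sperm genes and for the oocyte and embryo genes. The part of sperm, oocyte or embryo transcripts in the values was not tested.

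Other secreted effectors of immunity were set beside the *clec* genes. Of 59 listed genes for lysozymes, saposin-like proteins and infection-induced proteins, 43 were tested, and 24 fell and 8 rose in ATF-4OE against WT (limma), with a median log2 fold change of -0.68. These were 55.8% and 18.6% of the list, beside the backgrounds of 14.4% lower and 22.1% higher. Against the mutant, 18 were lower and 9 higher, or 41.9% and 20.9%, beside backgrounds of 13.8% and 19.8%. The infection-response gene *irg-4* fell by 2.51 on the log2 scale (limma adjusted p = 0.0014), and the invertebrate lysozyme gene *ilys-5* fell by 2.68 (limma adjusted p = 0.0022). The saposin-like gene *spp-24* rose by 1.54 (limma adjusted p = 0.0077). Of 25 immune regulators, 10 rose and 2 fell against WT, or 40.0% and 8.0%, beside the backgrounds of 22.1% higher and 14.4% lower. The p38 kinase gene *pmk-1* had 27.9, 24.1 and 25.7 ppm in ATF-4OE libraries and 21.5, 25.8 and 21.9 ppm in WT libraries, which overlapped (log2 fold change 0.16, limma adjusted p = 0.28). Those that fell were *elt-2*, the GATA factor of the intestine (log2 fold change -0.79, limma adjusted p = 0.0056), and *fshr-1*, a receptor of the innate immune response (log2 fold change -1.06, limma adjusted p = 0.0045). *sta-2*, the STAT-like factor of epidermal immunity, rose by 1.46 on the log2 scale (limma adjusted p = 6.8e-04).

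The summed level of intestinal markers was lower in ATF-4OE than in WT, as was that of the *clec* genes. The summed level of the 67 members was 2318, 3283 and 3289 ppm in ATF-4OE libraries, 4829, 5030 and 3172 ppm in *atf-4(tm4397)* libraries, and 5852, 4890 and 6743 ppm in WT libraries. That of 13 intestinal markers measured of 14 listed was 7194, 9206 and 10297 ppm in ATF-4OE libraries, 13281, 12514 and 8740 ppm in *atf-4(tm4397)* libraries, and 14950, 13587 and 15579 ppm in WT libraries. In both sums, ATF-4OE was below WT in every library, mutant replicate 3 was the lowest mutant library, and it lay within the ATF-4OE range. The largest part of the intestinal sum was 1 gene, *asp-1*. It had 4057, 5261 and 6248 ppm in ATF-4OE libraries, 7472, 7110 and 4755 ppm in *atf-4(tm4397)* libraries, and 8463, 7678 and 9201 ppm in WT libraries. The intestinal sum thus follows *asp-1* more than any other marker.

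Of the 13 intestinal markers, 8 fell and 0 rose against WT (median log2 fold change -0.72). Among those that fell were the peptide transporter gene *pept-1* (-1.05, limma adjusted p = 6.1e-04) and the brush border actin gene *act-5* (-0.81, limma adjusted p = 0.016). *ifb-2*, an intermediate filament gene of the intestine, did not pass (-0.33, limma adjusted p = 0.15). Nor did *ges-1*, *ifc-2*, *ifo-1* and *eps-8*, whose values ranged from -0.40 to -0.23. Against the mutant, 6 of the 13 were lower and 0 higher by the test, 3 had a positive value, and the median was -0.40. Set against the intestinal sum, the *clec* sum was 32.2, 35.7 and 31.9% in ATF-4OE libraries, 36.4, 40.2 and 36.3% in *atf-4(tm4397)* libraries, and 39.2, 36.0 and 43.3% in WT libraries. The mean in ATF-4OE was 0.508 of that in WT for the *clec* sum, 0.605 for the intestinal sum and 0.843 for the *clec* sum relative to the intestinal sum. On the relative scale, ATF-4OE replicate 2 (35.7%) and WT replicate 2 (36.0%) almost met. Of 12 neuronal markers, 11 rose against WT, and their sum was 1085 to 1288 ppm in ATF-4OE libraries and 652 to 764 ppm in WT libraries. Of 10 epidermal markers, 7 rose and 0 fell against WT by the test. Their sum was 5317 to 6942 ppm in ATF-4OE libraries and 1779 to 2624 ppm in WT libraries. The markers did not move as one. *bli-1* and *col-19* had negative log2 fold changes without passing the test (limma adjusted p = 0.24 and 0.21), and that of *bli-1* was the largest of the list in either direction. Both spread widely within WT, with 280, 18.2 and 217 ppm for *bli-1* and 1.19, 1.79 and 31.5 ppm for *col-19*. In ATF-4OE libraries *bli-1* had 3.71, 19.7 and 22.6 ppm, which overlapped WT. Against the mutant, 4 of the 10 rose and 0 fell, and *dpy-7* and *dpy-10*, which rose against WT, did not pass. This list holds *rol-6*, which the transgene also carries. Without *rol-6*, the sum was 2298 to 2493 ppm in ATF-4OE libraries and 1207 to 1945 ppm in WT libraries, and 6 of 9 markers rose. The backgrounds for the counts of these marker lists were 14.4% lower and 22.1% higher against WT, over all genes tested. Against the mutant they were 13.8% lower and 19.8% higher. The part of tissue composition in the *clec* values was not tested.

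**Figure D5:**
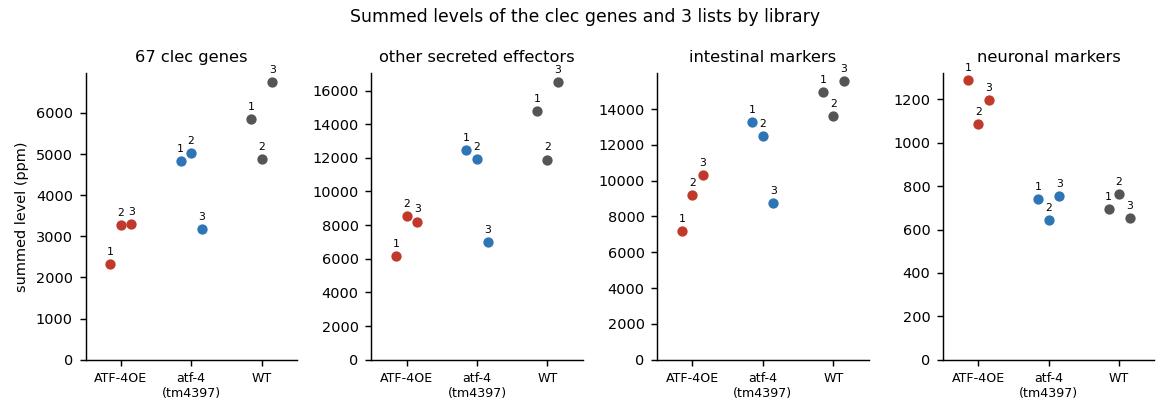
Summed levels in ppm of the 67 *clec* genes, the other secreted effectors, the intestinal markers and the neuronal markers in each library, with the replicate number above each point. In the first 3 panels ATF-4OE libraries lie below WT libraries and *atf-4(tm4397)* replicate 3 lies near ATF-4OE, and in the fourth panel the ATF-4OE libraries are the 3 highest.

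No call was made in either comparison of ATF-4OE for 26 members. Among them were *clec-180*, with 117, 80.5 and 99.1 ppm in ATF-4OE libraries and 94.4, 41.6 and 85.2 ppm in WT libraries, and *clec-173*, with 46.9, 57.5 and 65.3 ppm in ATF-4OE libraries and 61, 58.9 and 55.7 ppm in WT libraries, both named after their values were seen. Their groups overlapped. *clec-230* had 67.8, 66.5 and 70.5 ppm in ATF-4OE libraries and 22.3, 89.4 and 41.6 ppm in WT libraries, a spread within WT that left a standard error of 0.43 around a log2 fold change of 0.63 (adjusted p = 0.31, limma). Standard errors on the log2 scale had a median of 0.28 over the members and of 0.17 over all genes tested. A change of a given size was thus less detectable in the median member than in the median gene.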

How the data were processed

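Poly(A) RNA of 9 libraries was sequenced in 1 lane as single reads. Per the paper, alignment was to WBcel235 (STAR 2.4.0j) and counting by featureCounts (Rsubread 1.16.1). The authors deposited RPKM values and centred and scaled scores, which are linear in RPKM within a library. The lowest score of a library was set to 0 and the sum to 1000000 (ppm). Of RPKM values worth fewer than 20 reads, 40.2 to 49.7% were whole within 0.02 read, so reads were not recovered and no count model was used. The authors' term p-values were not used.

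For genes with at least 5 ppm in 1 library, log2(level + 1) was modelled by genotype over all 9 libraries with limma 3.58.1 (R 4.3.3) and trended moderation, as two-sided tests with Benjamini-Hochberg adjustment over 11287 genes. An exact permutation test of 3 against 3 libraries cannot go below 0.1. Fold changes on this scale understate those of rare genes. The script was tested on simulated data.

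Per the labels, strains were raised together within each replicate, so replicate numbers pair the libraries. Deviations from group means correlated at -0.68 to 0.31 in the 9 same-numbered pairs and at -0.52 to 0.76 in the other 18. Named were the 10 members per direction with the largest change among those that passed and did not overlap WT, 5 per direction against the mutant, *clec-50*, *clec-63*, infection-response lectins, *clec-38* if a member (it was not), the 5 highest and the 3 most variable in WT. Members, lists and the rule were chosen with earlier results of these data known. Names and positions came from Ensembl 115 of WBcel235, which holds 14092 of 14218 gene IDs, and 16 members are overlapped by other annotated genes. Sequences were not analysed here.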

Additional observations from a re-analysis of the deposited data

How the results depend on the processing

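With library weights, ATF-4OE had 6 higher members against WT (3 as reported) and 8 against the mutant (5 as reported). On the deposited scores with no log, ATF-4OE had 2 higher and 24 lower members against WT (3 and 36 as reported). In the same setting it had 2 higher and 13 lower members against the mutant (5 and 22 as reported). Under the library names of the RPKM sheet, each of the 4 counts for ATF-4OE was 0, as were those for the mutant against WT, and no gene of the series was called. Leaving out 1 library at a time gave 3 to 4 higher and 23 to 39 lower members for ATF-4OE against WT, 4 to 7 higher and 15 to 31 lower against the mutant, and 0 to 1 higher and 0 lower for the mutant against WT. Pseudocounts of 4 and 0.25, either filter, median ratio scaling and moderation without trend kept all 6 counts within 1.5 times.

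With the replicate number as a block, ATF-4OE had 3 higher and 32 lower members against WT, 4 higher and 19 lower against the mutant, and 0 passed for the mutant against WT; among the named genes the block ended no call but that of *clec-149* against the mutant. With mutant replicates 2 and 3 exchanged in the block, chosen after seeing the data, there were 3 and 35 against WT, 6 and 23 against the mutant, and *clec-47* missed the threshold against the mutant (adjusted p = 0.10).

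Of the named genes called, 12 of 17 against WT and 9 of 15 against the mutant kept their call under every alternative run on them (the RPKM sheet's names were tried on counts only). Direction reversed only on the scores with no log, where a difference is in SD of a library: for *clec-79* (0.000572), *clec-123* (0.000826) and *clec-73* (0.000721) against WT, and for *clec-264* (-0.0039) and *clec-149* (-0.0039) against the mutant. The lowest score was not set to 0 in this setting. Differences of rare genes there thus also hold differences between libraries in that lowest score. The cause of the reversals was not tested. Precision is limited by 3 libraries a group, and reads per gene were not recovered.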
